A study of Mus musculus with 40 samples.

Results

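This report describes what a high-fat diet (HFD) did to RNA levels in livers that lack PPARγ in their hepatocytes, in mice that received no pioglitazone (Pio). The 10 samples, of 40 in the series, were chosen by their labels: the 5 livers labelled as knockout (KO) on HFD, mice 6 to 10, were compared with the 5 labelled as KO on control diet, mice 1 to 5. All mice are labelled as male, aged 5 months and of strain C57BL6/J, and 5 mice make up each of the 8 groups of genotype, diet and Pio. Pioglitazone is a drug of the thiazolidinedione class that activates PPARγ, and the study asked how it acts on the liver with and without this receptor.

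KO mice carry loxP sites in Pparg and express Cre from the albumin promoter (Alb-Cre), which is active in hepatocytes, so that other cells of the liver keep the gene. Both groups of the main comparison carry this deletion, and their labels differ in diet only; cage, hour of collection and sequencing batch are not in the labels. The wild-type (WT) mice used for comparison are C57BL6/J mice and not floxed littermates. KO and WT livers have separate tables of counts, so that genotype and table cannot be told apart, and only diet effects within each table are set side by side. A further 2 KO groups, on control diet with Pio and on HFD with Pio, share the table with the main comparison and served as a second look at the same diets.

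Levels are given as CPM, the counts of a gene as a share of its library, normalized by the TMM method of edgeR over 19 KO libraries, and differences are log2 fold changes of HFD over control diet with their standard error (SE). A gene is called when its adjusted p is at most 0.05, where p comes from the quasi-likelihood test of edgeR and is adjusted by the Benjamini-Hochberg (BH) method over all 12418 genes that reached 1 CPM in 5 or more of the 19 libraries. Single values per mouse were compared by an exact permutation test over mice.

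The targeted gene itself is still counted in every KO liver. Pparg stood at 7.95, 6.64, 3.79, 9.14 and 10.3 CPM in control mice 1 to 5 and 7.4, 7.33, 8.77, 3.72 and 5.36 CPM in HFD mice 6 to 10. The groups overlap fully, with the lowest values in control mouse 3 and HFD mouse 9. The log2 fold change was -0.21 (SE 0.27, edgeR's BH-adjusted p 0.751), or -0.07 without mouse 9, and ran from -0.39 to 0.07 over the alternative fits. These are gene totals over all exons and all liver cells, so they do not show which part of the transcript remains in hepatocytes.

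Some libraries stand apart from their group. KO HFD mouse 9 lay at -65 on the first principal component, which holds 29.6% of the variance of the 19 libraries, against -2.79 to 14.7 in the other HFD mice. Its liver held high levels of acute-phase RNA: Saa1, a serum amyloid A gene, stood at 37, 68.3, 32.3, 106 and 168 CPM in control mice 1 to 5 and 27.8, 69, 141, 14580 and 594 CPM in HFD mice 6 to 10. Mouse 9 was also high in the neutrophil gene S100a8, at 1.57, 1.41, 1.74, 2.31 and 2.53 CPM in control mice 1 to 5 and 1.02, 2.14, 1.72, 100.3 and 5.27 CPM in HFD mice 6 to 10. Its limma sample weight was 0.168, the lowest of all 19, against 1.19 to 2.02 in the other 4 HFD mice. Medians of gene lists are given below with and without this mouse, and so are single genes that change much when it is left out.

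KO control mouse 5 lay at -16.4 on the first component, against 10.1 to 19.6 in the other control mice, with a sample weight of 0.468. KO HFD mouse 10 held summed CPM of 10 pancreatic acinar markers of 913, against 6.27 to 29.4 in the other HFD mice, and KO HFD mouse 7 had 6.74% of its counts on Gm42418, a gene that overlaps ribosomal RNA, against 0.305% to 1.68%. The 10 libraries held 21542958 to 27183558 counts, and library totals did not differ between the groups (24500000 and 24000000 on average, exact permutation p 0.643). Among the Pio mice kept, mouse 12 lay at -30 on the first component, against 1.3 to 7.76 in the other 3, with a sample weight of 0.343, the lowest after mouse 9. KO Pio mouse 13 was left out of all main fits. Earlier results of these data had shown that it lies far from the other KO livers and inflates the shared spread. In its library 0.852% of counts fell on mitochondrially encoded genes without rRNA, against 5.26% to 7.94% in the other KO Pio mice.

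Liver cells make cholesterol from acetyl-CoA by a chain of enzymes that runs through mevalonate, isoprenoids, squalene and lanosterol. The transcription factor SREBP2, encoded by Srebf2, raises most genes of this chain when membranes of the endoplasmic reticulum hold little sterol, and INSIG proteins hold it back when sterol is plentiful. PPARγ is best known for driving fat storage in adipocytes, and PPARα, its relative, drives fatty acid oxidation and the Cyp4a genes in hepatocytes.

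HFD against control diet in KO livers gave 48 called genes of 12418 (0.387%), with 34 higher (0.274%) and 14 lower (0.113%) on HFD. At unadjusted p under 0.05, 965 genes were higher (7.77%) and 810 lower (6.52%). The 5 HFD mice lay wholly above the 5 control mice for 205 genes (1.65%) and wholly below for 176 (1.42%), where chance gives 0.397% in each direction. Other fits gave other counts: DESeq2 called 266 genes, limma with sample weights 328, limma without them 39, and edgeR without a filter 24. With only the 10 libraries of the comparison edgeR called 0 genes, and with KO Pio mouse 13 kept again 0, so each call of this comparison is lost in these 2 fits. Without mouse 9, 852 genes were higher and 989 lower at unadjusted p under 0.05. This fit called 68 genes (0.548%), of which 38 are among the 48. The count moved with single mice, to 9 without control mouse 1, 27 without 2, 15 without 4 and 106 without 5, and to 24, 20, 18 and 22 without HFD mouse 6, 7, 8 and 10. All 48 kept their direction in every alternative fit, while the number that passes the adjustment ran from 0 to 328.

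Cholesterol synthesis is where the calls gather. Of a list of 25 genes of cholesterol synthesis and SREBP2 targets, all 25 were tested, 11 were called higher and 0 lower, and 22 were higher at unadjusted p under 0.05. The median log2 fold change of the list was 1.17, beside 0.00 over all genes tested, and 25 of 25 lay above 0. In 11 of them the 5 HFD mice lay wholly above the 5 control mice. Without mouse 9 the list held 10 called genes and a median of 1.27. DESeq2 called 15 of the 25, limma with sample weights 19, limma without them 11, and edgeR without a filter 5. With only the 10 libraries edgeR called 0 of them, with 21 at unadjusted p under 0.05 and a median of 1.18, and with mouse 13 kept also 0, with 17 and a median of 1.17.

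Relative to the control mean, the median over the list in each mouse was -0.08, 0.11, 0.83, -0.62 and -0.95 on the log2 scale in control mice 1 to 5, and 1.50, 1.37, 1.43, 0.66 and 0.81 in HFD mice 6 to 10. Control mouse 3 is the highest control and lies above HFD mice 9 and 10 by a little, and control mice 4 and 5 are the lowest. HFD mice 6, 7 and 8 lie close together at the top. The list's called genes fell to 2 without control mouse 1, 6 without control mouse 2 and 4 without control mouse 4, and to 5, 4 and 4 without HFD mouse 6, 7 and 8. Its median stayed between 1.02 and 1.46 over the 10 fits that leave out 1 mouse.

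Srebf2, which encodes the transcription factor, stood at 62.5, 59.1, 92.2, 57.8 and 52.5 CPM in control mice 1 to 5 and 109.8, 129, 128, 94.1 and 107 CPM in HFD mice 6 to 10. Each HFD mouse lies above each control mouse, and control mouse 3 is nearest to the HFD mice. Srebf2 rose by 0.81 (SE 0.14, edgeR's BH-adjusted p 0.0163). Of the 10 fits without 1 mouse, the call was lost without control mouse 1 or 4, or HFD mouse 7 or 8.

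The first steps lead to mevalonate and its phosphate. Hmgcs1, which joins acetyl-CoA to acetoacetyl-CoA, stood at 135, 172, 268, 105 and 60.6 CPM in control mice 1 to 5 and 891, 855, 973, 359 and 574 CPM in HFD mice 6 to 10. The HFD mice lie wholly above the control mice, with mouse 9 the lowest of them, and Hmgcs1 rose by 2.30 (SE 0.37, edgeR's BH-adjusted p 0.0132), and by 2.47 (adjusted p 0.00611) without mouse 9. Mvk, the kinase that phosphorylates mevalonate, stood at 12.4, 11.2, 25.5, 9.37 and 7.16 CPM in control mice 1 to 5 and 50.5, 54.2, 55.2, 29.1 and 37.5 CPM in HFD mice 6 to 10. Again no HFD mouse falls among the controls, and Mvk rose by 1.79 (SE 0.28, edgeR's BH-adjusted p 0.0132), a call kept in all 10 fits without 1 mouse. Of these 10 fits, the Hmgcs1 call was lost in that without control mouse 1.

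Pmvk, the next kinase, and Fdps, which makes farnesyl diphosphate, were not called, at 1.17 (edgeR's BH-adjusted p 0.125) and 1.38 (adjusted p 0.141), while DESeq2 and limma with sample weights called both. Idi1, which isomerizes the isoprenoid unit, is a low gene at 1.86, 1.57, 4.01, 0.831 and 0.434 CPM in control mice 1 to 5 and 9.35, 8.9, 10.9, 4.22 and 6.8 CPM in HFD mice 6 to 10. Its HFD mice lie above all controls, by a small gap between control mouse 3 and mouse 9, and it rose by 2.21 (SE 0.41, edgeR's BH-adjusted p 0.0263).

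Squalene is made by Fdft1 and oxidized by Sqle. Fdft1 stood at 23.8 to 88.5 CPM in control and 78.5 to 153 CPM in HFD mice, with control mouse 3 above HFD mouse 9, and rose by 1.47 (SE 0.28, edgeR's BH-adjusted p 0.0287). Sqle stood at 31.7, 37.2, 82.8, 13.7 and 7.96 CPM in control mice 1 to 5 and 170.1, 192, 193, 149.5 and 126 CPM in HFD mice 6 to 10. The controls span more than 10-fold, from mouse 5 up to mouse 3, and still all lie below the HFD mice. Sqle rose by 2.26 (SE 0.47, edgeR's BH-adjusted p 0.0427), and missed the threshold without mouse 9 at 2.29 (adjusted p 0.0542). Lss, which closes the ring to lanosterol, was not called at 1.17 (SE 0.33, edgeR's BH-adjusted p 0.121), while DESeq2 and limma with sample weights called it.

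The steps from lanosterol to cholesterol moved too. Cyp51, the lanosterol demethylase, stood at 35.6 to 182 CPM in control and 194 to 383 CPM in HFD mice and rose by 1.76 (SE 0.35, edgeR's BH-adjusted p 0.0385). Msmo1, a methylsterol oxidase, stood at 61.9, 52, 144, 38.7 and 30 CPM in control mice 1 to 5 and 313, 311, 373, 184 and 253 CPM in HFD mice 6 to 10. Control mouse 3 is high for Msmo1 and comes near HFD mouse 9, without overlap, and Msmo1 rose by 2.13 (SE 0.35, edgeR's BH-adjusted p 0.0132). Nsdhl, a sterol dehydrogenase, stood at 11.6 to 70.4 CPM in control and 90.4 to 166 CPM in HFD mice and rose by 1.93 (SE 0.37, edgeR's BH-adjusted p 0.0309). Hsd17b7, which acts beside it as a ketosterol reductase, stood at 57.8, 60.4, 71.5, 42.4 and 34.1 CPM in control mice 1 to 5 and 182, 159, 181, 80.6 and 128 CPM in HFD mice 6 to 10, with mouse 9 just above the highest control. Hsd17b7 rose by 1.46 (SE 0.23, edgeR's BH-adjusted p 0.0132), and by 1.60 (adjusted p 0.00168) without mouse 9, and its call was kept in all 10 fits without 1 mouse. Dhcr7, which makes cholesterol in the last step of one branch, stood at 31.3 to 112 CPM in control and 149 to 223 CPM in HFD mice and rose by 1.54 (SE 0.29, edgeR's BH-adjusted p 0.0283).

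Calls of single genes hung on few mice, as the 10 fits without 1 mouse show. Without control mouse 1 only Mvk and Hsd17b7 of the list stayed called. Of these fits, Sqle kept its call without control mouse 3 or 5. Nsdhl and Cyp51 kept theirs without control mouse 3 or 5 or HFD mouse 9, Idi1 and Fdft1 also without HFD mouse 10, and Dhcr7 also without control mouse 2. Fdft1 and Ctsb overlap on the genome, as do Cyp51 and Akap9, and reads that fit both genes of a pair were not counted.

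Insig1, which holds SREBP2 back, was 0.72 (adjusted p 0.194) and Stard4, a sterol carrier, 0.20 (SE 0.23, adjusted p 0.728), or 0.34 without mouse 9, neither called by edgeR. Over the alternative fits Stard4 ran from 0.03 to 0.34. Insig1 was called by limma with sample weights. Fdft1, Pmvk, Fdps, Lss, Insig1 and Stard4 were picked to be named after their values were seen.

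**Figure D1:**
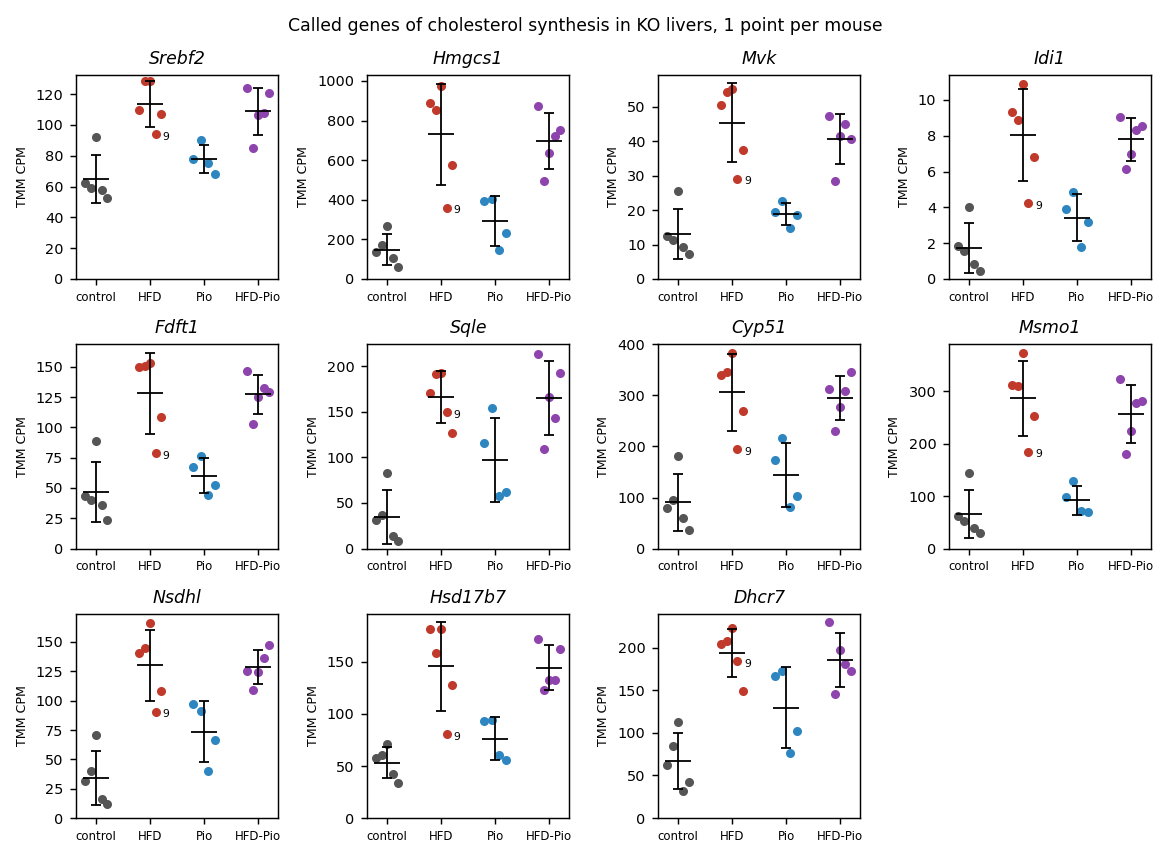
Levels of the 11 called genes of cholesterol synthesis in each KO liver, in TMM-normalized CPM. Each point is 1 mouse, bars show mean and SD, and 9 marks KO HFD mouse 9. The Pio group lacks mouse 13.

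Promoters from RefSeq (GRCm38.p6, 250 bases before to 50 after the gene's start) were matched by symbol to 17 of the 25 list genes and to 9 of the 11 called ones. The 4 called genes with the lowest p and the regulator Srebf2 are printed, 5′ to 3′, because these genes moved together. Capitals mark matches, on either strand, to 4 motifs: TCACNCCAC and TCACCCCA, 2 spellings of a sterol regulatory element that overlap each other, CCAAT and GGGCGG.
Mvk: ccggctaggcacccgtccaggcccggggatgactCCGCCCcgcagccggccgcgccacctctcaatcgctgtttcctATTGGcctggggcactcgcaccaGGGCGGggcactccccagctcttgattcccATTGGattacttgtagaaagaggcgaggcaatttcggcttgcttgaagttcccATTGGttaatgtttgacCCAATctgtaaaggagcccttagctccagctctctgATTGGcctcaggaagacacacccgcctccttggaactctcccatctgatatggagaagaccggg
Hsd17b7: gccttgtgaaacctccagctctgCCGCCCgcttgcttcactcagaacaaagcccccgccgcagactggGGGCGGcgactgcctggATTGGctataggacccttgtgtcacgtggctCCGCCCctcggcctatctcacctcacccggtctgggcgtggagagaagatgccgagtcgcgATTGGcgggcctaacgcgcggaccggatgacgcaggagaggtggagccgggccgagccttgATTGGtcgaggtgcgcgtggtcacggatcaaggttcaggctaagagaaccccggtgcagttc
Hmgcs1: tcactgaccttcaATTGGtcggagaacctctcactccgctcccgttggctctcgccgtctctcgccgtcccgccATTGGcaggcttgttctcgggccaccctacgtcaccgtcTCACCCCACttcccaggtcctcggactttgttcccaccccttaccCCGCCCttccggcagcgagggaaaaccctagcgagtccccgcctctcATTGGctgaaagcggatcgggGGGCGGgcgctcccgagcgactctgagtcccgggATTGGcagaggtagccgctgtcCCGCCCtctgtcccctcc
Msmo1: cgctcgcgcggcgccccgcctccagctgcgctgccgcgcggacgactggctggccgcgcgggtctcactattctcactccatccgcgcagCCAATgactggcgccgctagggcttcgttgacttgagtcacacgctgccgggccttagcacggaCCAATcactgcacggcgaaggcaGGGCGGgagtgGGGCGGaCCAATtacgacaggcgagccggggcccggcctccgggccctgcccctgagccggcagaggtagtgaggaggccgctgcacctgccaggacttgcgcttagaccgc
Srebf2: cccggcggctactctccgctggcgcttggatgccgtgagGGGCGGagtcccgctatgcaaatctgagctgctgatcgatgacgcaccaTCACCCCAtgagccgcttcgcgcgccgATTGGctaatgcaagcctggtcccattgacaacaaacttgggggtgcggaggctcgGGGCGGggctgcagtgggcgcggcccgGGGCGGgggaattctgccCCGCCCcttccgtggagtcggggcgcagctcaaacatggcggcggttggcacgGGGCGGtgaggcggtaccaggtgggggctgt

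Mvk lies at chr5:114444019-114444318, plus strand, Hsd17b7 at chr1:169969156-169969455, minus strand, Hmgcs1 at chr13:119690101-119690400, plus strand, Msmo1 at chr8:64733529-64733828, minus strand and Srebf2 at chr15:82147019-82147318, plus strand. TCACNCCAC occurs in promoters of 1.44% of 27025 genes and, in the list, in Hmgcs1 only. TCACCCCA occurs in 1.77% and, in the list, in Hmgcs1 and Srebf2. CCAAT occurs in 41.1% of genes and in 16 of the 17 matched list genes, and GGGCGG in 38.2% and also in 16 of 17. A match of letters is a description of the sequence and shows no binding.

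With Pio in both diets, no gene of this chain passed edgeR's test. KO mice on HFD with Pio against KO mice on control diet with Pio, 5 against 4 mice that share no library with the main comparison, gave 18 called genes (0.145%), by DESeq2 139, by limma with sample weights 99, and 0 by edgeR with mouse 13 kept. The count of 18 fell to 1 without KO Pio mouse 11, 12 without 12 and 2 without 15, rose to 36 without 14, and was 11, 2, 4 and 3 without HFD-Pio mouse 16, 17, 19 and 20. Of the cholesterol list, edgeR called 0, DESeq2 4 and limma with sample weights 5, and 9 were higher at unadjusted p under 0.05, with 25 of 25 above 0 and a median of 0.51. Over all 12418 genes, 564 were higher at that threshold and 6220 lay above 0. The difference between the 2 diet effects passed for 0 of 12418 genes (0%) by edgeR, for 19 by DESeq2 and for 4 by limma with sample weights, and at unadjusted p under 0.05 there were 1120 genes. Within the list the median of that difference was -0.61, with 3 genes lower at unadjusted p under 0.05, so it was not shown that Pio changes the diet effect.

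Seen per mouse, the list's median relative to the mean of KO control mice was 0.86, 1.04, 0.18 and 0.29 in Pio mice 11, 12, 14 and 15, and 1.65, 1.06, 1.46, 1.27 and 1.46 in HFD-Pio mice 16 to 20. Both Pio groups thus lie above 0, the control diet mice with Pio less so than those on HFD with Pio.

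In WT livers no gene of the list passed edgeR's test, though many more genes did in all. HFD against control diet in WT mice called 416 genes higher (3.23%) and 429 lower (3.33%) of 12895, in a fit of 39 libraries of both tables. For the cholesterol list edgeR called 0 genes, DESeq2 1, limma with sample weights 0 and limma without them 1. Of the 25 genes, 2 were higher and 4 lower at unadjusted p under 0.05, and the median was -0.02. Over all 12895 genes, 1450 were higher and 1562 lower at that threshold. Leaving out 1 mouse moved these 845 calls to 1451 (WT control mouse 831) and to 295 (WT control mouse 832), and keeping KO Pio mouse 13 to 170.

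The difference between the HFD effects in KO and WT livers passed for 81 genes with a higher value in KO (0.628%) and 55 with a lower one (0.427%). This count of 136 moved to 43 without KO HFD mouse 9, to 46, 65 and 24 without KO control mouse 1, 3 and 4, to 30 without WT HFD mouse 828, and to 464, 68 and 37 without WT control mouse 831, 832 and 833. With KO Pio mouse 13 kept it was 8. In the cholesterol list 8 of 25 were called higher and 0 lower, DESeq2 called 13, limma with sample weights 15 and limma without them 6. At unadjusted p under 0.05, 21 of the 25 were higher, beside 1301 of all 12895 genes. The median was 1.48, beside 0.03 over all genes. The 8 called by edgeR were Sqle 2.83 (SE 0.59, edgeR's BH-adjusted p 0.0187), Fdps 2.37 (SE 0.53, adjusted p 0.0291), Pmvk 2.03 (SE 0.46, adjusted p 0.0307), Dhcr7 1.84 (SE 0.36, adjusted p 0.0113), Hmgcs1 1.77 (SE 0.46, adjusted p 0.0497), Lss 1.71 (SE 0.42, adjusted p 0.0396), Insig1 1.48 (SE 0.38, adjusted p 0.0493) and Hsd17b7 1.48 (SE 0.32, adjusted p 0.0245). In WT livers alone Sqle was -0.57, Fdps -0.99, Pmvk -0.85 and Insig1 -0.75, none called.

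**Figure D2:**
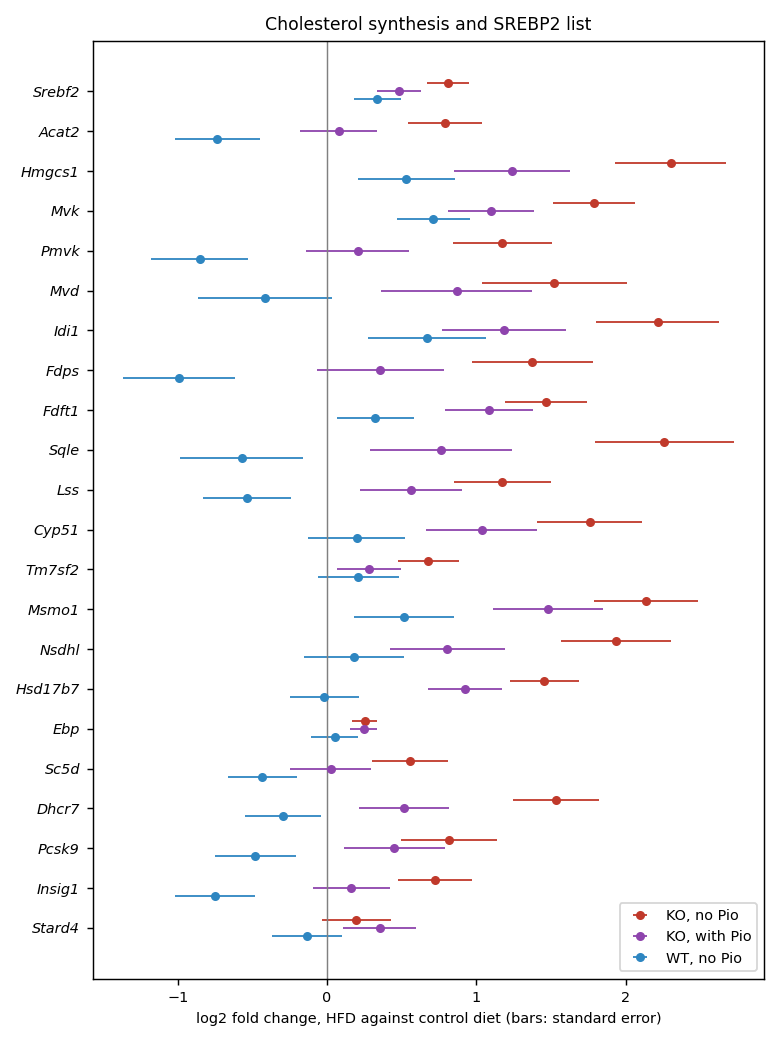
Log2 fold changes of HFD over control diet with their standard errors for 22 of the 25 genes of the cholesterol list, in KO mice without Pio, KO mice with Pio and WT mice without Pio.

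Of the 15 called genes with the largest rise, among those with a mean of at least 5 CPM and no overlap between the groups, 6 lie outside the sterol list. The lack of overlap was part of the rule that picked them, so their separation is a description. Enho, which encodes the secreted peptide adropin, stood at 5.85, 6.44, 13.8, 15.5 and 18.6 CPM in control mice 1 to 5 and 37.7, 37.9, 41.6, 43.2 and 42.5 CPM in HFD mice 6 to 10. The HFD values lie within a narrow band and all controls far below it, and Enho rose by 1.75 (SE 0.35, edgeR's BH-adjusted p 0.0385), or 1.73 without mouse 9 (adjusted p 0.0542). Its call was kept in 1 of 10 fits without 1 mouse, the one without control mouse 5, and the difference from WT was 0.53 (SE 0.52, edgeR's BH-adjusted p 0.629), where HFD gave 1.23 (adjusted p 0.041).

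Tlcd2, a membrane protein gene, stood at 44.2, 47.7, 40.5, 29.1 and 22 CPM in control mice 1 to 5 and 87.4, 85.9, 90.4, 61.7 and 79.9 CPM in HFD mice 6 to 10. Mouse 9 is the lowest HFD mouse and still above control mouse 2, and Tlcd2 rose by 1.14 (SE 0.18, edgeR's BH-adjusted p 0.0132). Fmn1, a formin that builds actin filaments, stood at 3.05 to 7.02 CPM in control and 12.3 to 17.6 CPM in HFD mice and rose by 1.59 (SE 0.32, edgeR's BH-adjusted p 0.0385), a call kept in 2 of 10 fits without 1 mouse, HFD mouse 9 or control mouse 5. Map3k13, a kinase of stress signalling, stood at 16 to 28.1 CPM in control and 34.1 to 47.3 CPM in HFD mice and rose by 0.90 (SE 0.16, edgeR's BH-adjusted p 0.0163). Smo, the signal transducer of the Hedgehog pathway, stood at 2.93 to 5.37 CPM in control and 6.74 to 8.59 CPM in HFD mice and rose by 0.86 (SE 0.14, edgeR's BH-adjusted p 0.0132). Tmco6 stood at 3.98 to 5.84 CPM in control and 7.83 to 10.3 CPM in HFD mice and rose by 0.89 (SE 0.11, edgeR's BH-adjusted p 0.00375). Map3k13 lost its call without control mouse 1 or HFD mouse 7, and Tlcd2, Smo and Tmco6 kept theirs in all 10 fits without 1 mouse. With Pio in both diets, HFD gave 1.70 for Enho, 0.61 for Tlcd2, 0.50 for Fmn1, -0.18 for Map3k13, 0.08 for Smo and 0.35 for Tmco6, none called. The difference between the diet effects with and without Pio was largest for Fmn1 at -1.10 (SE 0.45, edgeR's BH-adjusted p 0.504) and Map3k13 at -1.08 (SE 0.22, adjusted p 0.22), the latter with an unadjusted p of 0.000142.

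Against WT livers, the HFD effect was higher in KO for Map3k13 by 1.14 (SE 0.25, edgeR's BH-adjusted p 0.0241) and for Tmco6 by 1.13 (SE 0.21, adjusted p 0.0076), and was not called for Smo at 0.85 (SE 0.24, adjusted p 0.0628), Fmn1 at 1.71 (SE 0.50, adjusted p 0.0729) or Tlcd2 at 0.44 (SE 0.32, adjusted p 0.481). A further 2 called genes, picked after their values were seen, are Atp6v0a1, a subunit of the proton pump of lysosomes, and Aatk, a kinase gene. Atp6v0a1 stood at 52.8 to 61.7 CPM in control and 73.7 to 87.9 CPM in HFD mice and rose by 0.45 (SE 0.06, edgeR's BH-adjusted p 0.00375), and Aatk stood at 3.19 to 5.21 CPM in control and 5.14 to 10.8 CPM in HFD mice and rose by 1.11 (SE 0.19, adjusted p 0.0146). With Pio the 2 genes gave 0.21 and 0.43, neither called. HFD mouse 9 overlaps with the controls for Aatk, whose call was lost in 1 of 10 fits without 1 mouse, that without control mouse 1, and WT livers gave 1.99 for it (edgeR's BH-adjusted p 2.7e-06).

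Among genes that fell, Apoc2, which encodes the cofactor of lipoprotein lipase, stood at 335, 305, 309.7, 246 and 505 CPM in control mice 1 to 5 and 199.6, 206, 188, 180.4 and 189 CPM in HFD mice 6 to 10. The HFD mice lie in a narrow band below every control, and control mouse 5 is the highest. Its log2 fold change was -0.82 (SE 0.14, edgeR's BH-adjusted p 0.0167), and -0.64 with Pio (adjusted p 0.116). Of the 10 fits without 1 mouse, the call was lost without control mouse 1 or HFD mouse 8. WT livers gave 0.28, and the difference between KO and WT was -1.10 (SE 0.28, edgeR's BH-adjusted p 0.0432). Apoa4, an apolipoprotein of triglyceride-rich particles, stood at 327, 378, 509, 159 and 1362 CPM in control mice 1 to 5 and 118, 114, 104, 203 and 81.3 CPM in HFD mice 6 to 10. Control mouse 5 is far above all others, HFD mouse 9 overlaps with control mouse 4, and the log2 fold change was -2.14 (SE 0.45, edgeR's BH-adjusted p 0.0485), a call kept in 2 of those fits, without HFD mouse 9 or control mouse 4. Without control mouse 5 the value was -1.47, and with Pio -1.72, not called.

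Further genes given by the naming rule fell without overlap by 0.51 or less. Plekha8, a carrier of glycolipids at the Golgi, stood at 28 to 35.5 CPM in control and 18.2 to 23.7 CPM in HFD mice, with a log2 fold change of -0.51 (SE 0.10, edgeR's BH-adjusted p 0.0263). Dnajb4, a cochaperone, stood at 41.4 to 55.1 CPM in control and 29.4 to 38.8 CPM in HFD mice and changed by -0.49 (SE 0.09, edgeR's BH-adjusted p 0.0163). Nhlrc2 stood at 24.7 to 29 CPM in control and 17.9 to 21.4 CPM in HFD mice and changed by -0.40 (SE 0.06, edgeR's BH-adjusted p 0.0132). Of these 3, Nhlrc2 kept its call in all 10 fits without 1 mouse, Dnajb4 lost it without control mouse 1 or 4, and Plekha8 without control mouse 1 or 4 or HFD mouse 6 or 10. The ceramide carrier gene Col4a3bp changed by -0.37 (SE 0.08, edgeR's BH-adjusted p 0.0485), Pycrl, an enzyme of proline synthesis, by -0.40 (SE 0.08, adjusted p 0.0263), and Smg5, a factor of nonsense-mediated decay, by -0.27 (SE 0.06, adjusted p 0.0427). Safb, a nuclear scaffold protein gene, changed by -0.27 (SE 0.05, edgeR's BH-adjusted p 0.0263), Josd1, a deubiquitinase gene, by -0.27 (SE 0.06, adjusted p 0.0427) and Tmed4, of transport between endoplasmic reticulum and Golgi, by -0.26 (SE 0.05, adjusted p 0.031). Pycrl kept its call in 5, Safb and Tmed4 in 4, and Col4a3bp, Smg5 and Josd1 in 2 of the 10 fits without 1 mouse, and each of these 6 lost it without control mouse 1, control mouse 4 and HFD mice 8 and 10.

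With Pio in both diets these 9 genes were not called: Plekha8 gave -0.12, Dnajb4 0.22, Nhlrc2 0.03, Col4a3bp -0.36, Pycrl -0.02, Smg5 -0.03, Safb -0.08, Josd1 -0.07 and Tmed4 -0.12. Dnajb4 and Nhlrc2 thus lie above 0 with Pio, and their differences between the diet effects with and without Pio, 0.71 (SE 0.13, edgeR's BH-adjusted p 0.2) and 0.44 (SE 0.09, adjusted p 0.259), were not called, at unadjusted p of 2.18e-05 and 0.000209.

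Muc6 and Ak4, picked after their values were seen, are lower as well, and with Pio gave -0.02 and -0.34, neither called. Muc6, a gel-forming mucin, stood at 3.65 to 5.41 CPM in control and 1.48 to 2.58 CPM in HFD mice with a log2 fold change of -1.11 (SE 0.17, edgeR's BH-adjusted p 0.0132), and its difference between KO and WT was -1.32 (SE 0.32, adjusted p 0.0396). Ak4, a mitochondrial adenylate kinase, stood at 36.6 to 61.4 CPM in control and 21 to 37.9 CPM in HFD mice with -0.87 (SE 0.17, edgeR's BH-adjusted p 0.0365), and kept its call in 2 of 10 fits without 1 mouse, those without control mouse 5 or HFD mouse 6.

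The PPARγ target genes that the study follows did not pass the test. Of Pparg and 7 targets, 6 passed the filter and 0 were called, also by DESeq2 and limma. Cd36, a fatty acid transporter, stood at 22.2, 28.3, 32.7, 27.4 and 82.6 CPM in control mice 1 to 5 and 23.1, 21.7, 26.3, 57.6 and 29.1 CPM in HFD mice 6 to 10. Control mouse 5 and HFD mouse 9 stand high in their groups and the rest are alike, with -0.29 (SE 0.39, edgeR's BH-adjusted p 0.762), or -0.63 without mouse 9. Fabp4, a fatty acid carrier, stood at 7.46, 11.6, 5.75, 5.26 and 12.7 CPM in control mice 1 to 5 and 7.06, 7.76, 7.38, 32.3 and 10.1 CPM in HFD mice 6 to 10, where mouse 9 alone is high, and gave 0.59 (SE 0.51, edgeR's BH-adjusted p 0.627), or -0.09 without mouse 9. Cidec, of the lipid droplet, gave -0.53 (SE 0.28, edgeR's BH-adjusted p 0.412), from -0.65 to -0.26 over the alternative fits, Plin4, which coats lipid droplets, -0.51 (SE 0.30, adjusted p 0.456) and Cav1, of caveolae, 0.22 (SE 0.19, adjusted p 0.614). Cfd and Mogat1 were below the filter, at means of 0.613 and 0.206 CPM in control and 1.15 and 0.232 CPM in HFD mice, with exact permutation p of 0.405 and 0.706. Plin4 differed from WT by -1.59 (SE 0.39, edgeR's BH-adjusted p 0.0396), with 1.08 (adjusted p 0.0126) in WT livers.

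The wider list of PPARγ target and lipid droplet genes held 0 called genes of 20 tested, with 1 higher and 0 lower at unadjusted p under 0.05, 0 called by DESeq2 and 0 by limma with sample weights, and a median log2 fold change of -0.05 (-0.08 without mouse 9), with Bscl2 and Cidec at the lowest p, Bscl2 at 0.16 (SE 0.07, edgeR's BH-adjusted p 0.299). For this and the lists below, limma without sample weights called 0 genes, save 1 of the apolipoprotein list.

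Fat synthesis showed 0 called genes of 29 tested, with 0 higher and 6 lower at unadjusted p under 0.05, 1 called by DESeq2 and 0 by limma with sample weights, and a median log2 fold change of -0.26 (-0.17 without mouse 9). Scd1, the desaturase that makes oleate, stood at 18943, 21016, 15491, 2443 and 4386 CPM in control mice 1 to 5 and 5434, 3657, 3717, 6194 and 1217 CPM in HFD mice 6 to 10. Control mice 1, 2 and 3 are high, control mice 4 and 5 lie among the HFD mice, and the log2 fold change was -1.62 (SE 0.54, edgeR's BH-adjusted p 0.188). Tkfc, which handles fructose carbons, gave -0.56 (SE 0.20, edgeR's BH-adjusted p 0.225), and Pnpla3, a lipase picked after its values were seen, -2.04 (SE 0.79, adjusted p 0.249), from -2.33 to -0.89 over the alternative fits. In WT livers 12 of the 29 genes were called lower and 0 higher, Scd1 by -2.51 (edgeR's BH-adjusted p 0.00465), and in the difference between KO and WT 2 were called higher. With Pio in both diets, edgeR called 1 of the 29 lower, DESeq2 5 and limma with sample weights 3. There 0 were higher and 13 lower at unadjusted p under 0.05, beside 610 lower of all 12418 genes, and the median was -0.57. The difference between the diet effects with and without Pio was called for 0 of the 29. Sterol export and LXR targets held 0 called genes of 12 tested, with 1 higher and 1 lower at unadjusted p under 0.05, 1 called by DESeq2 and 1 by limma with sample weights, and a median log2 fold change of -0.02 (-0.03 without mouse 9). Abcg5, a subunit of the transporter that sends sterols into bile, stood at 103 to 160.5 CPM in control and 82.9 to 113 CPM in HFD mice and gave -0.47 (SE 0.11, edgeR's BH-adjusted p 0.0745), and with Pio -0.68 (SE 0.12, adjusted p 0.0193), and Mylip, a ubiquitin ligase, 0.25 (SE 0.11, adjusted p 0.307).

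Peroxisomal oxidation with Cyp4a genes and thioesterases held 0 called genes of 28 tested, with 0 higher and 7 lower at unadjusted p under 0.05, 3 called by DESeq2 and 0 by limma with sample weights, and a median log2 fold change of -0.15 (-0.04 without mouse 9). Cyp4a10, a fatty acid hydroxylase, stood at 99.2, 77.7, 569.8, 639 and 437 CPM in control mice 1 to 5 and 57.5, 75.3, 57.6, 11.9 and 87.2 CPM in HFD mice 6 to 10. Control mice 3, 4 and 5 are high, control mouse 1 lies just above the HFD mice and control mouse 2 among them, and mouse 9 is the lowest. The log2 fold change was -2.65 (SE 0.60, edgeR's BH-adjusted p 0.0675), and -2.40 (adjusted p 0.0718) without mouse 9, from -2.91 to -1.70 over the alternative fits. Cyp4a14 stood at 30.3, 38.1, 761, 843 and 551 CPM in control mice 1 to 5 and 93.1, 103, 134, 17.7 and 54.1 CPM in HFD mice 6 to 10, with the same 3 controls high, and gave -2.47 (SE 0.75, edgeR's BH-adjusted p 0.147), from -2.77 to -0.63 over the alternative fits, and Cyp4a12b gave -1.51 (SE 0.39, adjusted p 0.0884). With Pio, Cyp4a10 gave -0.13 and Cyp4a14 -0.68. Cyp4a genes are close copies of each other, and reads that fit several were not counted, so their separate levels are uncertain. In WT livers 9 of the 28 genes were called higher and 0 lower with a median of 0.56, and in the difference between KO and WT 4 were called lower, among them Cyp4a10 at -4.01 (SE 0.65, edgeR's BH-adjusted p 0.0033) and Cyp4a14 at -3.53 (SE 0.81, adjusted p 0.0307).

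Mitochondrial fatty acid oxidation and ketogenesis held 0 called genes of 29 tested, with 1 higher and 0 lower at unadjusted p under 0.05, 0 called by DESeq2 and 0 by limma with sample weights, and a median log2 fold change of -0.11 (-0.02 without mouse 9), while in WT livers 12 of 29 were called higher and 1 lower. Ucp2, an uncoupling protein gene, gave 0.44 (SE 0.18, edgeR's BH-adjusted p 0.266), and 0.24 without mouse 9, and Hadha, of beta-oxidation, -0.21 (SE 0.10, adjusted p 0.373), or -0.13 without it. In the difference between KO and WT 3 genes of this list were called lower and 0 higher. With Pio in both diets 0 of the 29 were called in KO livers, with 1 higher and 3 lower at unadjusted p under 0.05. The median there was 0.19, with 25 of 29 above 0. Nuclear genes of oxidative phosphorylation held 0 called genes of 76 tested, with 0 higher and 7 lower at unadjusted p under 0.05, 0 called by DESeq2 and 0 by limma with sample weights, and a median log2 fold change of -0.12 (-0.06 without mouse 9). Cox7a2, of complex IV, gave -0.15 (SE 0.05, edgeR's BH-adjusted p 0.21) and Uqcr10, of complex III, -0.27 (SE 0.10, adjusted p 0.234). Of the 76 genes 4 lay above 0, and 13 without mouse 9.

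Apolipoproteins and lipoprotein assembly held 0 genes called higher and 2 lower of 22 tested, with 0 higher and 5 lower at unadjusted p under 0.05, and a median log2 fold change of -0.13 (-0.10 without mouse 9), the 2 being Apoc2 and Apoa4. Bile acid synthesis, conjugation and transport held 0 called genes of 27 tested, with 1 higher and 1 lower at unadjusted p under 0.05, 1 called by DESeq2 and 1 by limma with sample weights, and a median log2 fold change of -0.02 (0.08 without mouse 9). Csad, an enzyme of taurine synthesis, stood at 51.3, 53.7, 44.3, 111 and 89.4 CPM in control mice 1 to 5 and 208, 118, 216, 78.5 and 104 CPM in HFD mice 6 to 10. Control mice 4 and 5 reach into the HFD range and mice 6 and 8 are the highest, with 1.05 (SE 0.33, edgeR's BH-adjusted p 0.163). Cyp39a1, an oxysterol hydroxylase, gave -0.56 (SE 0.25, edgeR's BH-adjusted p 0.312), from -0.67 to -0.21 over the alternative fits. Taurine, one-carbon and selenoprotein genes held 0 called genes of 22 tested, with 3 higher and 2 lower at unadjusted p under 0.05, 2 called by DESeq2 and 2 by limma with sample weights, and a median log2 fold change of 0.02 (0.07 without mouse 9), with Dio1, which activates thyroid hormone, at 45 to 125 CPM in control and 113 to 198 CPM in HFD mice and 1.10 (SE 0.27, edgeR's BH-adjusted p 0.0822).

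Gluconeogenesis and insulin signalling held 0 called genes of 26 tested, with 0 higher and 2 lower at unadjusted p under 0.05, 0 called by DESeq2 and 0 by limma with sample weights, and a median log2 fold change of -0.06 (-0.11 without mouse 9), with Irs1, an insulin receptor substrate, at -0.43 (SE 0.19, edgeR's BH-adjusted p 0.301) and Gys2, glycogen synthase, at -0.46 (SE 0.20, adjusted p 0.309), or -0.28 without mouse 9. Glycolysis and hexose metabolism held 0 called genes of 22 tested, with 0 higher and 4 lower at unadjusted p under 0.05, 2 called by DESeq2 and 2 by limma with sample weights, and a median log2 fold change of -0.08 (-0.12 without mouse 9). Gpi1, glucose phosphate isomerase, gave -0.52 (SE 0.12, edgeR's BH-adjusted p 0.0677), with all HFD mice below all controls. The urea cycle and amino acid catabolism held 0 called genes of 44 tested, with 0 higher and 1 lower at unadjusted p under 0.05, 0 called by DESeq2 and 0 by limma with sample weights, and a median log2 fold change of 0.01 (0.02 without mouse 9), with Uroc1, of histidine breakdown, at -0.33 (SE 0.10, edgeR's BH-adjusted p 0.156) and Nags, of the urea cycle, at 0.11 (SE 0.07, adjusted p 0.492), or 0.07 without mouse 9.

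The unfolded protein response held 0 called genes of 32 tested, with 0 higher and 10 lower at unadjusted p under 0.05, 1 called by DESeq2 and 2 by limma with sample weights, and a median log2 fold change of -0.26 (-0.30 without mouse 9). Without mouse 9, 20 of the 32 were lower at unadjusted p under 0.05, beside 989 of all 12418 genes, and again 0 were called. P4hb, a protein disulfide isomerase, stood at 1356, 1321, 1571, 1627 and 1684 CPM in control mice 1 to 5 and 1175, 1207, 1188, 1196 and 1160 CPM in HFD mice 6 to 10. All HFD mice lie below all controls, with -0.35 (SE 0.09, edgeR's BH-adjusted p 0.0856), and Ern1, a sensor of unfolded protein, gave -0.39 (SE 0.14, adjusted p 0.204). Core clock and clock output genes held 0 called genes of 22 tested, with 2 higher and 3 lower at unadjusted p under 0.05, 2 called by DESeq2 and 2 by limma with sample weights, and a median log2 fold change of -0.25 (-0.11 without mouse 9). The clock repressors Per1 and Per2 gave -0.53 (SE 0.13, edgeR's BH-adjusted p 0.0745) and -0.86 (SE 0.25, adjusted p 0.133), and the hour of collection is not in the labels, so its part was not tested. Immediate early genes held 0 called genes of 19 tested, with 0 higher and 1 lower at unadjusted p under 0.05, 0 called by DESeq2 and 1 by limma with sample weights, and a median log2 fold change of 0.37 (0.04 without mouse 9), and without it 2 were higher and 1 lower at unadjusted p under 0.05. Among them are Fosb at -1.71 (SE 0.72, edgeR's BH-adjusted p 0.285), which rests on control mouse 2 and ran from -2.17 to -0.28 over the alternative fits, and Dusp1, a phosphatase, at 0.62 (SE 0.30, adjusted p 0.357).

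Acute-phase proteins show what mouse 9 does to a list. With it the list held 0 called genes of 26 tested, with 9 higher and 0 lower at unadjusted p under 0.05, 0 called by DESeq2 and 0 by limma with sample weights, and a median log2 fold change of 1.04, and without it 0 called genes of 26 tested, with 1 higher and 0 lower at unadjusted p under 0.05, and a median log2 fold change of -0.10. In each mouse the list's median relative to the control mean was -0.49, -0.36, 0.19, 0.12 and 0.26 in controls and -0.42, -0.19, -0.10, 2.72 and 0.26 in HFD mice, on the log2 scale. In this median mouse 9 alone is high, and mouse 10 is level with control mouse 5. For single genes mouse 10 can lie above every control, as for Saa1 at 594 CPM and Lcn2 at 113 CPM. The part of mouse 10 in the values without mouse 9 was not tested. Orm2, an acid glycoprotein, gave 5.29 (SE 1.36, edgeR's BH-adjusted p 0.0897) with mouse 9 and 1.03 (SE 0.61, adjusted p 0.477) without, and Saa2 6.97 (SE 1.84, adjusted p 0.0963) with and 2.54 (SE 1.14, adjusted p 0.318) without it. Lcn2, a siderophore binder picked after its values were seen, stood at 3.87, 5.97, 26.6, 24.3 and 51.6 CPM in control mice 1 to 5 and 6.09, 13.7, 15.4, 2875 and 113 CPM in HFD mice 6 to 10. Without mouse 9, Lcn2 went from 4.75 to 0.72, Saa1 from 5.22 to 1.33 and S100a8 from 3.53 to 0.40. Saa1 and Saa2 are close copies, as are Orm2 and its neighbours, so their separate levels are uncertain.

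**Figure D3:**
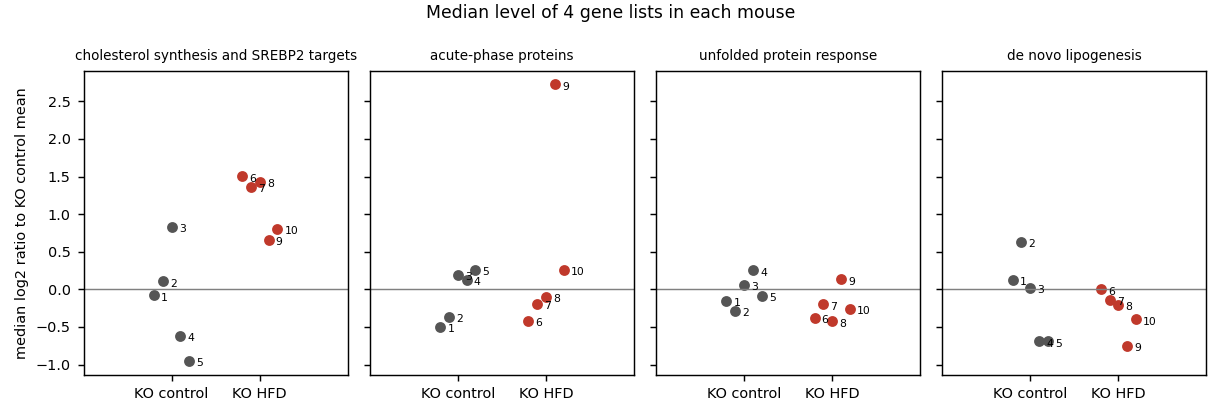
Median log2 ratio to the KO control mean over 4 gene lists in each of the 10 mice, numbered as in the labels.

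Drug-metabolizing P450 genes held 0 called genes of 37 tested, with 1 higher and 7 lower at unadjusted p under 0.05, 1 called by DESeq2 and 1 by limma with sample weights, and a median log2 fold change of -0.19 (-0.19 without mouse 9). Cyp3a11, the main P450 of steroid and drug oxidation, stood at 421, 383, 292, 388 and 587 CPM in control mice 1 to 5 and 133, 128, 135, 7.7 and 153 CPM in HFD mice 6 to 10. All HFD mice lie below all controls, and mouse 9 is lowest by far. The log2 fold change was -1.89 (SE 0.47, edgeR's BH-adjusted p 0.0822), not called, and -1.59 (SE 0.19, adjusted p 0.000946) without mouse 9, called. WT livers gave -1.82 (SE 0.44, edgeR's BH-adjusted p 0.0121), and Cyp2c68 gave -0.57 (adjusted p 0.199) in KO livers. Phase II conjugation and NRF2 genes held 0 called genes of 37 tested, with 1 higher and 2 lower at unadjusted p under 0.05, 0 called by DESeq2 and 1 by limma with sample weights, and a median log2 fold change of -0.14 (-0.01 without mouse 9), with Sult1c2, a sulfotransferase, at -0.79 (SE 0.26, edgeR's BH-adjusted p 0.185) and Nfe2l2, which encodes NRF2, at -0.22 (SE 0.07, adjusted p 0.188).

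Other genes also hinge on mouse 9. Lepr, the leptin receptor, stood at 16.8, 17.1, 26.3, 11.5 and 9.15 CPM in control mice 1 to 5 and 3.05, 3.38, 2.59, 11.5 and 4.97 CPM in HFD mice 6 to 10. HFD mice 6, 7, 8 and 10 lie below all controls and mouse 9 among them, with -1.66 (SE 0.38, edgeR's BH-adjusted p 0.0729), not called, and -2.21 (SE 0.34, adjusted p 0.00702) without mouse 9, called. With Pio the value was -2.40 (SE 0.40, edgeR's BH-adjusted p 0.0193) and in WT livers -2.40 (SE 0.40, adjusted p 0.000455). Sesn1, a p53 target, stood at 10.7, 10.8, 13.1, 11.6 and 11 CPM in control mice 1 to 5 and 18, 19.4, 18.6, 10.8 and 20.7 CPM in HFD mice 6 to 10. Mouse 9 alone of the HFD mice lies among the controls, with 0.61 (SE 0.16, edgeR's BH-adjusted p 0.0856), and 0.74 (SE 0.12, adjusted p 0.01) without mouse 9. The p53, BMP and iron list held 0 called genes of 24 tested, with 3 higher and 4 lower at unadjusted p under 0.05, 1 called by DESeq2 and 1 by limma with sample weights, and a median log2 fold change of -0.01 (-0.05 without mouse 9), with Ftl1, of ferritin, at -0.22 (SE 0.08, edgeR's BH-adjusted p 0.216).

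Growth hormone, STAT5 and sex-biased genes held 0 called genes of 31 tested, with 8 higher and 1 lower at unadjusted p under 0.05, 3 called by DESeq2 and 2 by limma with sample weights, and a median log2 fold change of 0.29 (0.15 without mouse 9). Stat5a gave 0.64 (SE 0.15, edgeR's BH-adjusted p 0.0722) and Serpina1e, a protease inhibitor with close copies, 1.62 (SE 0.40, adjusted p 0.0839). Interferon and antigen presentation held 0 called genes of 34 tested, with 1 higher and 0 lower at unadjusted p under 0.05, 0 called by DESeq2 and 0 by limma with sample weights, and a median log2 fold change of 0.03 (0.01 without mouse 9), with Psmb9 at 0.32 (SE 0.12, edgeR's BH-adjusted p 0.246) and H2-K1 at -0.15 (SE 0.08, adjusted p 0.376). Extracellular matrix and stellate activation held 0 called genes of 29 tested, with 0 higher and 0 lower at unadjusted p under 0.05, 0 called by DESeq2 and 0 by limma with sample weights, and a median log2 fold change of 0.04 (-0.11 without mouse 9). Ctgf, a matrix signal, gave -0.56 (SE 0.27, edgeR's BH-adjusted p 0.358) and Loxl2, which crosslinks collagen, 0.51 (SE 0.31, adjusted p 0.47), or 0.13 without mouse 9. The cell cycle held 0 called genes of 24 tested, with 6 higher and 0 lower at unadjusted p under 0.05, 1 called by DESeq2 and 0 by limma with sample weights, and a median log2 fold change of 0.29 (0.08 without mouse 9), and without it 2 were higher at unadjusted p under 0.05. Aurka gave 0.84 (SE 0.23, edgeR's BH-adjusted p 0.121) and Bub1b 1.32 (SE 0.46, adjusted p 0.203), or 0.66 without mouse 9.

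Outside the sterol list, the named genes with the largest differences between the HFD effects in KO and WT livers are, on the lower side, Cyp4a10 and Cyp4a14, given above. Orm2 6.47 (SE 1.45, edgeR's BH-adjusted p 0.0291), Ngp, of neutrophil granules, 8.23 (SE 1.91, adjusted p 0.0334), Fabp5, a fatty acid carrier, 3.71 (SE 0.93, adjusted p 0.0433) and Alpk1, an innate immune kinase, 3.68 (SE 0.86, adjusted p 0.0334) were higher in KO. All 4 shrink without mouse 9, to 2.21, 3.89, 2.27 and 1.44. In WT livers Fabp5 gave -3.21 (SE 0.68, edgeR's BH-adjusted p 0.0053). In KO livers Fabp5 and Alpk1 gave 0.50 and 2.38, or -0.95 and 0.13 without mouse 9. Ngp did not reach the filter of the fit of KO libraries alone, so no value of that fit is given for it. Slc17a8, a glutamate transporter, -2.65 (SE 0.54, edgeR's BH-adjusted p 0.0173) and Gm4952 -2.24 (SE 0.35, adjusted p 0.0033) were lower in KO, and they rose in WT livers by 2.55 and 2.00 and gave -0.10 and -0.24 in KO livers, or 0.17 and -0.05 without mouse 9. Without mouse 9 these 2 differences were -2.37 and -2.05.

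With Pio, called genes with a large rise on HFD were Ces1b, a carboxylesterase, 0.90 (SE 0.10, edgeR's BH-adjusted p 0.000318), Inhbc, an activin subunit, 0.75 (SE 0.14, adjusted p 0.0319), and Ttc39b 0.54 (SE 0.10, adjusted p 0.044). Without Pio they gave 0.34, -0.15 and 0.25, none called. Besides Lepr, called genes with a large fall with Pio were G6pdx, of the pentose phosphate path, -1.93 (SE 0.35, edgeR's BH-adjusted p 0.0321), Arhgef16, an exchange factor, -1.03 (SE 0.18, adjusted p 0.0193) and Gabbr2, a receptor subunit, -0.96 (SE 0.17, adjusted p 0.0257). Without Pio these gave 0.35, -0.55 and -0.20, with mouse 9 high for G6pdx, and without it G6pdx gave -0.12 and Gabbr2 -0.34. Inhbc differed between KO and WT by -1.26 (SE 0.23, edgeR's BH-adjusted p 0.0076).

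Marker lists of cell types describe the tissue. Summed CPM of 12 hepatocyte markers was 111000, 113000, 141000, 110000 and 118000 in control and 111000, 117000, 112000, 88400 and 120000 in HFD mice, with exact permutation p 0.429 (0.81 without mouse 9), and Alb is the most abundant of them per kb. Mouse 9 is lowest and control mouse 3 highest, the rest overlap, and the liver label is met in all 10. In bulk tissue, fewer cells of a type and less RNA per cell cannot be told apart. Of 15 tested markers of Kupffer cells and macrophages 0 were called and 6 were higher at unadjusted p under 0.05, or 2 without mouse 9, with sums of 481, 915, 540.0, 422 and 698 in control and 601, 619, 621, 1410 and 755 in HFD mice, led by Cd5l per kb (exact permutation p 0.365, and 0.746 without mouse 9). Mouse 9 is the highest, and control mouse 2 is above the other HFD mice.

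Endothelial markers summed to 444, 531, 520.0, 472 and 466 in control and 532, 531, 541, 556 and 568 in HFD mice, without overlap. The exact permutation p was 0.00794, the smallest possible, and 0.0397 without mouse 9. Dpp4 led the list per kb but averaged 141 CPM in control and 139 CPM in HFD mice, so the rise lies in other markers of the list. Of the 10 tested, 0 were called by edgeR, 2 by DESeq2 and 2 by limma with sample weights, and 4 were higher at unadjusted p under 0.05. The part of these cells in the results above was not tested. Stellate cell and fibroblast markers, led by Dcn per kb, summed to 363 on average in control and 382 in HFD mice (exact permutation p 0.571, and 1 without mouse 9), with 0 of 11 tested called by edgeR, 1 by DESeq2 and 1 higher at unadjusted p under 0.05. Cholangiocyte markers, led by Spp1, summed to 67.2 and 88.2 (exact permutation p 0.214, and 0.421 without mouse 9), with 0 of 6 called and 1 higher and 1 lower at unadjusted p under 0.05, or 0 and 0 without mouse 9.

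Neutrophil markers, led by S100a9, summed to 5.61, 5.18, 5.49, 5.95 and 6.58 in control and 2.92, 6.71, 6.42, 514 and 24.7 in HFD mice (exact permutation p 0.294, and 0.46 without mouse 9). Mouse 9 is far above the rest, and mouse 10 lies above every control as well, as does mouse 7 by a little. T, NK and B cell markers, led by Ighm, averaged 23.3 and 42.1 (exact permutation p 0.722, and 0.492 without mouse 9), with mouse 10 at 129. Adipocyte markers, led by Adrb3, averaged 29.5 and 40.1 (exact permutation p 0.0556, and 0.0873 without mouse 9), and blood markers, led by Hbb-bs, 218 and 317 (exact permutation p 0.111, and 0.19 without mouse 9). None of the tested markers of these 4 lists was called by edgeR, DESeq2 or limma, and 2 neutrophil, 0 lymphocyte, 2 adipocyte and 1 blood marker were higher at unadjusted p under 0.05, or 0, 0, 1 and 0 without mouse 9.

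Pancreatic acinar markers were led per kb by Ctrb1 over the 10 mice together. Ctrb1 averaged 0.099 CPM in control and 37.2 CPM in HFD mice, so other markers make up the control sums. The list summed to 13.6, 19.9, 12.9, 12.5 and 6.33 in control and 29.4, 25, 24.2, 6.27 and 913 in HFD mice (exact permutation p 0.0952), with Amy2a5 at 0 in all 10. HFD mice 6, 7, 8 and 10 lie above every control, and without mouse 9 the exact permutation p was 0.00794, the smallest that 4 against 5 mice can give. Only 1 of them passed the filter. It was not called by edgeR but was higher on HFD at unadjusted p under 0.05, by 1.64, and by 1.91 without mouse 9. The same marker was also higher at that threshold with Pio in both diets, by 1.25, and in WT livers, by 1.01. How far it makes up the sums of mice 6, 7 and 8 was not tested. Skeletal muscle markers, led by Mylpf, averaged 0.72 and 4.19 (exact permutation p 0.96, and 0.413 without mouse 9), with mouse 10 at 19, and 0 passed the filter. Mouse 10 is thus high for neutrophil, lymphocyte, acinar and muscle markers, and their part in the results was not tested. Without mouse 10, 8 cholesterol genes stayed called and the list's median was 1.27.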

How the data were processed

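The deposited values are raw read counts per gene, whole numbers without normalization, which the authors made from poly-A liver RNA by alignment to GRCm38 with STAR 2.0.4b and counting of uniquely aligned reads with featureCounts 1.4.5. The table of 20 KO libraries and that of 20 WT libraries were joined by gene identifier, repeated lines of a gene were dropped, and 355 rRNA genes were removed. The 10 libraries of the main comparison held 21542958 to 27183558 counts. The residual degrees of freedom were 15 and the common dispersion 0.0359.

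edgeR 4.0.16 in R 4.3.3, with its quasi-likelihood test and Benjamini-Hochberg adjustment over all genes tested, fitted 1 mean per group with TMM normalization and robust dispersions, over 19 KO libraries (12418 genes that reached 1 CPM in 5 or more) or 39 libraries of both tables (12895 genes). KO Pio mouse 13 was left out. Alternatives were DESeq2 1.42.0, limma 3.58.1 with and without sample weights, no filter, only the libraries compared, mouse 13 kept, and each mouse left out. The exact permutation test covered all 252 splits of 5 against 5 mice, with a smallest p of 0.00794. Scripts ran in Python 3.11.15 (matplotlib 3.10.9, scipy 1.17.1, pandas 2.3.3, numpy 2.4.6) and were tested on simulated data.

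Genes were named by a rule: Pparg and 7 targets that the study follows; up to 15 called genes per direction with the largest change, a mean of at least 5 CPM and no overlap of the groups; of each list the called members with the smallest p, up to 6, or else 2; and up to 4 called genes per direction in each of the other comparisons. Some genes, 3 of the cholesterol list among them, are not reported here by name or drawn, which did not depend on their values, and counts and medians of lists include them. Others are said to be picked after their values were seen. The 24 lists were those named in the text, and 11 marker lists covered cell types. Members and lists were chosen with earlier results of these data known. The ratios of a list to the control mean used a pseudocount of 0.5 CPM.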

Additional observations from a re-analysis of the deposited data

Results flagged for a closer look

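A mouse was flagged when it lay far from the other 4 of its group for a named gene, a marker list, a share of counts or a principal component. Of 236 groups of values tested, 48 held such a mouse, 26 of them KO HFD mouse 9 and 6 KO control mouse 5, while chance flags about 1 in 20 groups. That rate holds for values not chosen by their pattern, and here some genes were named because mouse 9 stood out in them, and values of the same mouse go together. In CPM, HFD mouse 9 was far above the other HFD mice for acute-phase and neutrophil genes: Orm2 at 2970 (others 6.81 to 96.9), Saa2 at 14900 (others 10.3 to 506), Saa1 at 14600 (others 27.8 to 594), S100a8 at 100 (others 1.02 to 5.27) and Lcn2 at 2870 (others 6.09 to 113). It was also high for Cd36 at 57.6 (others 21.7 to 29.1), Fabp4 at 32.3 (others 7.06 to 10.1), Ucp2 at 82.4 (others 44.2 to 54.9), Loxl2 at 6.78 (others 2.33 to 2.88) and Bub1b at 3.72 (others 0.762 to 1.35). Further high values of it were Lepr at 11.5 (others 2.59 to 4.97), G6pdx at 18.6 (others 5.41 to 7.37), Fabp5 at 40.7 (others 2.23 to 7.45) and Alpk1 at 90 (others 3.22 to 7.37). Mouse 9 was low for Nhlrc2 at 17.9 (others 20.4 to 21.4), Hadha at 288 (others 390 to 418), Gys2 at 59.6 (others 141 to 165) and Cyp3a11 at 7.7 (others 128 to 153). Low values of it were also H2-K1 at 825 (others 941 to 976), Sesn1 at 10.8 (others 18 to 20.7) and Stard4 at 76.8 (others 150 to 162). In summed CPM of marker lists, mouse 9 stood apart for Kupffer cell and macrophage markers at 1410 (others 601 to 755), cholangiocyte markers at 145 (others 67.1 to 80.7), hepatocyte markers at 88400 (others 111000 to 120000) and neutrophil markers at 514 (others 2.92 to 24.7). On the first principal component it lay at -65 (others -2.79 to 14.7).

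Control mouse 5 stood apart for Cd36 at 82.6 (others 22.2 to 32.7), Pycrl at 21.5 (others 24.3 to 25.3), Saa2 at 64.9 (others 10 to 20.9) and Loxl2 at 4.23 (others 1.8 to 2.1), for stellate cell and fibroblast markers at 492 (others 314 to 352), and on the first principal component at -16.4 (others 10.1 to 19.6). Control mouse 3 was high for Msmo1 at 144 (others 30 to 61.9), Mvk at 25.5 (others 7.16 to 12.4), Srebf2 at 92.2 (others 52.5 to 62.5) and Plekha8 at 35.5 (others 28 to 29.1). It was also high for Cyp39a1 at 98.1 (others 35.7 to 47.2) and H2-K1 at 1190 (others 979 to 1010). Its sum of hepatocyte markers at 141000 (others 110000 to 118000) was flagged too. Control mouse 2 was high for Fosb at 9.31 (others 0.61 to 1.73) and control mouse 4 low for Uroc1 at 466 (others 580 to 624). HFD mouse 6 was high for Cox7a2 at 66.5 (others 61.6 to 62.6) and HFD mouse 8 for Atp6v0a1 at 87.9 (others 73.7 to 77.7). HFD mouse 7 had 1.46% of its counts on rRNA genes (others 0.495% to 0.715%) and 6.74% on Gm42418 (others 0.305% to 1.68%). HFD mouse 10 was high for T, NK and B cell markers at 129 (others 15.3 to 22.5), pancreatic acinar markers at 913 (others 6.27 to 29.4) and skeletal muscle markers at 19 (others 0.333 to 0.592).

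In 22 named genes the effect of HFD differed between KO and WT livers, by edgeR's quasi-likelihood test of that difference with Benjamini-Hochberg adjustment. On the log2 scale the effect was higher in KO for Ngp 8.23, Orm2 6.47, Fabp5 3.71, Alpk1 3.68, Sqle 2.83, Fdps 2.37 and Pmvk 2.03. It was also higher for Dhcr7 1.84, Hmgcs1 1.77, Lss 1.71, Insig1 1.48, Hsd17b7 1.48, Map3k13 1.14 and Tmco6 1.13. The effect was lower in KO for Cyp4a10 -4.01, Cyp4a14 -3.53, Slc17a8 -2.65, Gm4952 -2.24, Plin4 -1.59, Muc6 -1.32, Inhbc -1.26 and Apoc2 -1.10. The differences for Ngp, Orm2, Fabp5 and Alpk1 shrink without KO HFD mouse 9, as given above, and Ngp did not reach the filter of the KO fit. Of the 136 genes called for this difference over all genes, 8 stayed called with KO Pio mouse 13 kept. No cause of these flags was tested.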

How the results depend on the processing

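Called genes for HFD against control diet in KO mice without Pio numbered 48 in the main fit, 266 with DESeq2, 328 with limma with sample weights, 24 without a filter, 0 with only the 10 libraries compared, 0 with KO Pio mouse 13 kept, 147 without KO HFD mouse 9 and KO control mouse 5 together, and 9 to 106 with 1 mouse left out. The cholesterol list held 11 called genes, then 15 with DESeq2, 19 with limma with sample weights, 5 without a filter, 0 with only the 10 libraries, 0 with mouse 13, and 2 to 13 with 1 mouse left out, while its median stayed between 1.02 and 1.46. With Pio, the 18 calls became 139 with DESeq2, 99 with limma with sample weights, 0 with mouse 13, 100 without mice 9 and 5 together, and 1 to 36 with 1 mouse left out. For the difference between these diet effects, 0 became 19 with DESeq2, 4 with limma with sample weights, 2 without mice 9 and 5 together, and 0 to 1 with 1 mouse left out. For the difference between KO and WT, 136 became 402 with DESeq2, 178 with limma with sample weights, 72 with limma without sample weights, 45 without a filter, 8 with mouse 13, and 24 to 464 with 1 mouse left out. In WT mice, 845 became 1186 with DESeq2, 316 with limma with sample weights, 637 with limma without them, 468 without a filter, 170 with mouse 13, and 295 to 1451 with 1 mouse left out. Of named genes, the log2 fold change crossed 0 for Pparg, from -0.21 to 0.0067 with limma with sample weights and 0.066 without mice 9 and 5. The lowest value of Pparg over the alternative fits was -0.3861. The log2 fold change also crossed 0 for Cd36, which ran from -0.6324 without HFD mouse 9 to 0.1906 without control mouse 5, and for Fabp4, from -0.0944 without mouse 9 to 0.7774 without control mouse 5. In this comparison it also crossed 0 for genes named for other comparisons: Fabp5 (-1.1393 to 0.7668), G6pdx (-0.123 to 0.4827), Slc17a8 (-0.4359 to 0.1708) and Gm4952 (-0.3593 to 0.0138). Of 1808 values of single genes and counts in other settings, 1431 kept sign and call, 325 were weaker and 48 stronger. limma without sample weights and the fits without mice 9 and 5 together were chosen after seeing the data. KO Pio mouse 13 was also left out on the ground of earlier results of these data. The cause of these changes was not tested. No paired analysis was possible because the mouse numbers differ between groups.

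The groups hold 5 mice each, so a difference has to be large beside the spread between mice to pass, and a gene that was not called was not shown to be unchanged. Only gene totals of whole liver were held, so cell types, transcripts, proteins, sterol levels and the deleted exons were not measured. Food intake, body weight, cage, the hour of collection and sequencing batches are not in the labels, and their part was not tested. KO and WT livers cannot be compared in level, because genotype and table cannot be told apart.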
